A study of Mus musculus with 6 samples.

Results

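The cells described here are splenic cells that carried RNA of *Gzma*, *Gzmk* and *S100a4*, genes used to mark effector-memory-like CD8 T cells. They were chosen by measured values: a barcode of a spleen library was a member when it had at least 500 genes, at least 1000 UMIs (unique molecular identifiers), at most 20% mitochondrial UMIs, at least 3 raw UMIs of *Gzma*, *Gzmk* and *S100a4* together and fewer than 2 raw UMIs of the granulocyte genes *Mpo*, *Elane* and *Prtn3* together. The rule found 106 members among 6406 filtered spleen cells, and the whole series held 11125 filtered cells in 6 libraries. Of the members, 103 came from the library labelled *Pdcd1* cKO and 3 from the library labelled *Pdcd1*fl/fl. They are compared with the filtered spleen cells that had 0 UMIs of the 3 rule genes and fewer than 2 of the granulocyte genes, called zero-score cells.

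*Gzma* and *Gzmk* encode serine proteases stored in the cytotoxic granules of killer lymphocytes, and *S100a4* encodes a calcium-binding protein found in activated and memory T cells. Memory CD8 T cells arise from naive cells after antigen contact or cytokine-driven expansion. Effector-memory cells among them keep granule and chemokine genes active and have low levels of the lymph node homing receptor CCR7, and so circulate through blood, spleen and tissues.

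The study asked how loss of PD-1, the inhibitory receptor encoded by *Pdcd1*, acts in CD8 T cells, and the spleen libraries are its baseline without a tumor. Each spleen library held CD8a-selected splenocytes of 1 adult C57BL/6 mouse, sequenced with PIPseq, a method that captures single cells in droplets with barcoded beads. The *Pdcd1* cKO mouse carried floxed *Pdcd1* alleles with an E8I CD8-Cre, a driver active in mature CD8 T cells, and the *Pdcd1*fl/fl control carried the floxed alleles without Cre. With 1 library per genotype there are no replicates, so values are set side by side with no test, and genotype, mouse and library cannot be told apart.

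Over all filtered cells, *Pdcd1* RNA went against the labels. In the library labelled *Pdcd1*fl/fl, the filtered cells held 1 *Pdcd1* UMI, or 0.450 CPM (UMIs of a gene scaled to a total of 1e6 UMIs), with an exact 95% Poisson interval of 0.0114 to 2.51. The filtered cells of the other library held 104, or 11.7 CPM (9.52 to 14.1). The order was the same over all filtered cells of thymus (1.88 CPM under the label *Pdcd1*fl/fl and 6.84 CPM under *Pdcd1* cKO) and of tumor (76.4 and 102 CPM). Among tumor cells that met the member rule it turned, at 152 CPM (141 to 165) and 110 CPM (102 to 118). Zero-score cells of tumor were at 18.5 and 12.1 CPM, and those with 1 or 2 rule-gene UMIs at 18.2 and 47.4 CPM. The counts are per gene and do not show which exons the UMIs came from, so RNA without the floxed exons would be counted too. An exchange of labels was not tested. Libraries are therefore named by their labels throughout, and no difference between them is read as an effect of the genotype. All intervals given here are 95% intervals and cover counting error only.

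The libraries also differed in depth. The library labelled *Pdcd1*fl/fl had 6929 barcodes and 5935926 UMIs, with a median of 728 UMIs per barcode, and 1478 barcodes (21.3%) passed the filters. The library labelled *Pdcd1* cKO had 4963 barcodes and 8964626 UMIs, with a median of 1611, and 4928 barcodes (99.3%) passed. Of the barcodes of the library labelled *Pdcd1*fl/fl, 5267 were below 1000 UMIs, and 4 of those had 3 or more UMIs of the rule genes. The 2 spleen libraries shared 2 barcode sequences, none of them among filtered cells. No doublet caller was run and no cell was removed as a doublet.

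Members were 0.203% of the filtered cells in the library labelled *Pdcd1*fl/fl (exact Clopper-Pearson interval 0.0419 to 0.592) and 2.09% in the library labelled *Pdcd1* cKO (1.71 to 2.53). The share was higher in the library labelled *Pdcd1* cKO, and the intervals did not overlap. Median depth of the filtered cells was 1320.5 and 1615 UMIs. After every cell was thinned at random to 1000 UMIs, the rule found 1 member (0.0677%, 0.00171 to 0.376) and 70 members (1.42%, 1.11 to 1.79). The order of the libraries was the same at equal depth.

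The levels of the rule genes, which define membership and are no separate result, were as follows. *Gzma* (chromosome 13, 113230355 to 113237524 on GRCm39) was at 9.01 CPM in the filtered cells of the library labelled *Pdcd1*fl/fl and at 56.0 CPM in the other spleen library. *Gzmk*, its neighbour on chromosome 13 (113308142 to 113362442), was at 14.0 and 54.3 CPM. *S100a4* (chromosome 3, 90511074 to 90513354) was at 17.1 and 52.4 CPM. The members of the library labelled *Pdcd1* cKO held 50% of all its *Gzma* UMIs, 27.2% of the *Gzmk* UMIs and 35.5% of the *S100a4* UMIs. Most *Gzmk* and *S100a4* RNA of that library was thus in cells with 1 or 2 rule-gene UMIs, of which there were 747.

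Most members of the library labelled *Pdcd1* cKO sat close to the threshold. Of its 103 members, 43 had exactly 3 rule-gene UMIs, 22 had 4 and 38 had 5 or more, with a maximum of 21. Just outside the threshold, 150 cells had 2 UMIs. A *Gzmk* UMI was seen in 65 members, an *S100a4* UMI in 55 and a *Gzma* UMI in 50. UMIs of all 3 genes were seen in 6 members, of 2 genes in 55 and of 1 gene in 42. The 42 were split into 16 with *Gzma*, 15 with *S100a4* and 11 with *Gzmk*. The highest count in a member was 18 UMIs for *Gzma*, 18 for *S100a4* and 5 for *Gzmk*. A member with exactly 3 UMIs can show all 3 genes only with 1 UMI of each, so whether the members shared the genes cannot be told from these counts.

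Among all filtered cells of that library, the rule genes were found together to unequal degrees. *Gzmk* was detected in 17.4% of the 281 cells with *Gzma* (13.2 to 22.4) and in 7.19% of the cells without it. *S100a4* was detected in 16.4% of the 383 cells with *Gzmk* (12.9 to 20.5) and in 5.61% of those without it. For *Gzma* and *S100a4* the shares were 7.83% (4.97 to 11.6) and 6.37%, a difference within the counting interval. *Gzmk* was the gene that each of the others accompanied.

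The members had the RNA of CD8 T cells. In the library labelled *Pdcd1* cKO, *Cd8a* or *Cd8b1*, the chains of the CD8 co-receptor, had a UMI in 86 of 103 members (83.5%) against 78.2% of the 4066 zero-score cells. A *Cd3d*, *Cd3e* or *Cd3g* UMI was present in 102 members and a T cell receptor constant-chain UMI (*Trac*, *Trbc1* or *Trbc2*) in 101, against 94.3% of zero-score cells for each. Every member had a UMI of at least 1 of these 8 genes, as did 99.7% of zero-score cells. *Cd4*, the co-receptor of helper T cells, had 1 UMI in 1 member.

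Cells with granulocyte genes give a comparison for such shares. The 12 cells of that library with at least 2 UMIs of *Mpo*, *Elane* and *Prtn3*, a set marking granulocyte precursors, had a *Cd8a* or *Cd8b1* UMI in 8 cells and a *Cd3* UMI in 10, at a median depth of 2457 UMIs against 1445 in the members and 1617 in the zero-score cells. At least 1 of the 8 CD8 T cell genes had a UMI in 11 of the 12 cells. *Cd8b1* was at 276 CPM in these granulocyte-gene cells, 803 CPM in the members and 857 CPM in the zero-score cells. *Cd3e* was at 166, 524 and 348 CPM. The levels of both genes in members were thus above those of the granulocyte-gene cells. The share intervals overlapped for a *Cd8a* or *Cd8b1* UMI and for a *Cd3* UMI. *Cd3e* alone was seen in 63.1% of members (53.0 to 72.4) and 16.7% of granulocyte-gene cells (2.09 to 48.4). Whether T cell UMIs in these cells came from free RNA or from doublets was not tested. The rule genes had a UMI in 3 (*Gzma*), 2 (*Gzmk*) and 1 (*S100a4*) of the 12 cells, and 1 of the 12 met the threshold on the rule genes and was left out by the granulocyte criterion.

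The comparison with zero-score cells below was made in the library labelled *Pdcd1* cKO, where the UMIs of the 103 members (215519 in all) and of the 4066 zero-score cells (7239867) were pooled. A lone UMI in the pooled members equals 4.64 CPM. Ratios are log2 of members over zero-score cells with exact conditional binomial intervals, and are a description, since the members were selected on RNA of the same cells. Of 8666 genes with at least 50 UMIs, 1248 (14.4%) were at least 2-fold higher in members and 545 (6.29%) at least 2-fold lower. A gene at that minimum has 1.45 UMIs expected in the members, and with at least 350 UMIs (10.1 expected) 106 of 2755 genes (3.85%) were higher and 46 (1.67%) lower. The median log2 ratio of the 8666 genes was 0.27, and scaling by the median of ratios takes this amount off every gene, which gives 699 higher and 786 lower.

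Several chemokine genes were higher in members, the abundant *Ccl5* among them. *Ccl5*, which encodes a chemokine that memory CD8 T cells store ready for release, was at 16342 CPM in members and 7369 CPM in zero-score cells (log2 1.15, 1.10 to 1.20), and at 3476 CPM in the granulocyte-gene cells. Each of the 103 members had a *Ccl5* UMI, as did 97.5% of zero-score cells. *Ccl4*, a chemokine gene whose product is released by activated CD8 T cells, was at 1457 and 494 CPM (log2 1.56, 1.39 to 1.73). *Ccl3*, a related inflammatory chemokine gene, was at 427 and 47.4 CPM (log2 3.17, 2.82 to 3.51), with UMIs in 31 members. Much of this RNA was in 1 deep cell. In the members where *S100a4* had the most UMIs of the rule genes, *Ccl3* had 49 UMIs in 5 cells, and 11 in 4 cells without the members above 5000 UMIs. *Ifng*, the gene of interferon gamma, was at 204 and 102 CPM (log2 1.01, 0.53 to 1.45), and *Xcl1*, a chemokine for cross-presenting dendritic cells, at 167 and 165 CPM. The effector chemokine and cytokine list thus had *Ccl3*, *Ccl4*, *Ccl5* and *Ifng* higher and *Xcl1* nearly equal. Of its 9 measured genes (at least 20 UMIs), 5 were at least 2-fold higher, *Tnfsf14* with 11 UMIs in 3 members included, and 1 lower (*Tnfsf10*, at 0 UMIs in members), beside 19.5% and 7.41% of all 11073 genes measured so, and its median log2 ratio was 1.02 beside 0.30. Without the members above 5000 UMIs, 4 were higher, with *Tnfsf14* out, and 2 lower, and the median was 0.88.

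The size of these chemokine ratios differed between settings. Among cells with at least 1500 UMIs, which leaves 46 members, the log2 ratio was 0.70 for *Ccl5* and 0.87 for *Ccl4*. In cells thinned to 1000 UMIs, where the rule was applied again and left 70 members, it was 1.64 and 2.22. Both genes were higher in members in each case. In single cells, the *Ccl5* level of members ran from 685 to 79658 CPM with a median of 19502, and 5.61% of zero-score cells were at or above that median. The lower quartile of members was 10566 CPM and the upper quartile of zero-score cells 10969 CPM.

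Granule genes had unequal ratios. *Nkg7*, which encodes a granule membrane protein needed for degranulation, was at 3086 CPM in members and 1713 CPM in zero-score cells (log2 0.85, 0.73 to 0.96), and at 993 CPM in the granulocyte-gene cells. Its ratio was 0.50 among cells with at least 1500 UMIs and 1.09 without the members above 5000 UMIs. *Gzmb*, the apoptosis-inducing granzyme B gene, was at 125 and 23.5 CPM (log2 2.42, 1.77 to 3.01), with UMIs in 22 members and none in the granulocyte-gene cells. *Fasl*, the death receptor ligand gene, was at 153 and 42.7 CPM (log2 1.84, 1.28 to 2.36, and 1.10 among cells with at least 1500 UMIs). Both killing genes were low in abundance and higher in members.

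*Prf1*, the gene of the pore-forming protein perforin, was at 60.3 and 34.0 CPM, a difference not detectable at this depth (log2 0.83, -0.10 to 1.63, with -0.27 in thinned cells and 1.36 among cells with at least 1500 UMIs). *Gzmm*, granzyme M, went the other way, at 41.8 CPM in members and 158 CPM in zero-score cells (log2 -1.92, -3.05 to -0.99, from 9 UMIs in 6 members, and -1.01 in thinned cells). *Ctsw*, a cysteine protease gene of cytotoxic cells, was at 288 and 267 CPM. The members as a whole thus had less granzyme M RNA than zero-score cells. Of the 12 measured granule genes, 4 were at least 2-fold higher (*Gzmb*, *Fasl*, *Serpinb9* and *Ctsd*) and 1 lower (*Gzmm*), beside 19.5% and 7.41% of all genes. Without the members above 5000 UMIs the count was 6, with *Prf1*, *Nkg7* and *Slamf7* in and *Ctsd* out. The median log2 ratio was 0.86 beside 0.30, and the summed level 5457 against 3612 CPM. *Serpinb9*, the granzyme B inhibitor gene, had 4 UMIs in members, and *Gzmc* none.

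**Figure D1:**
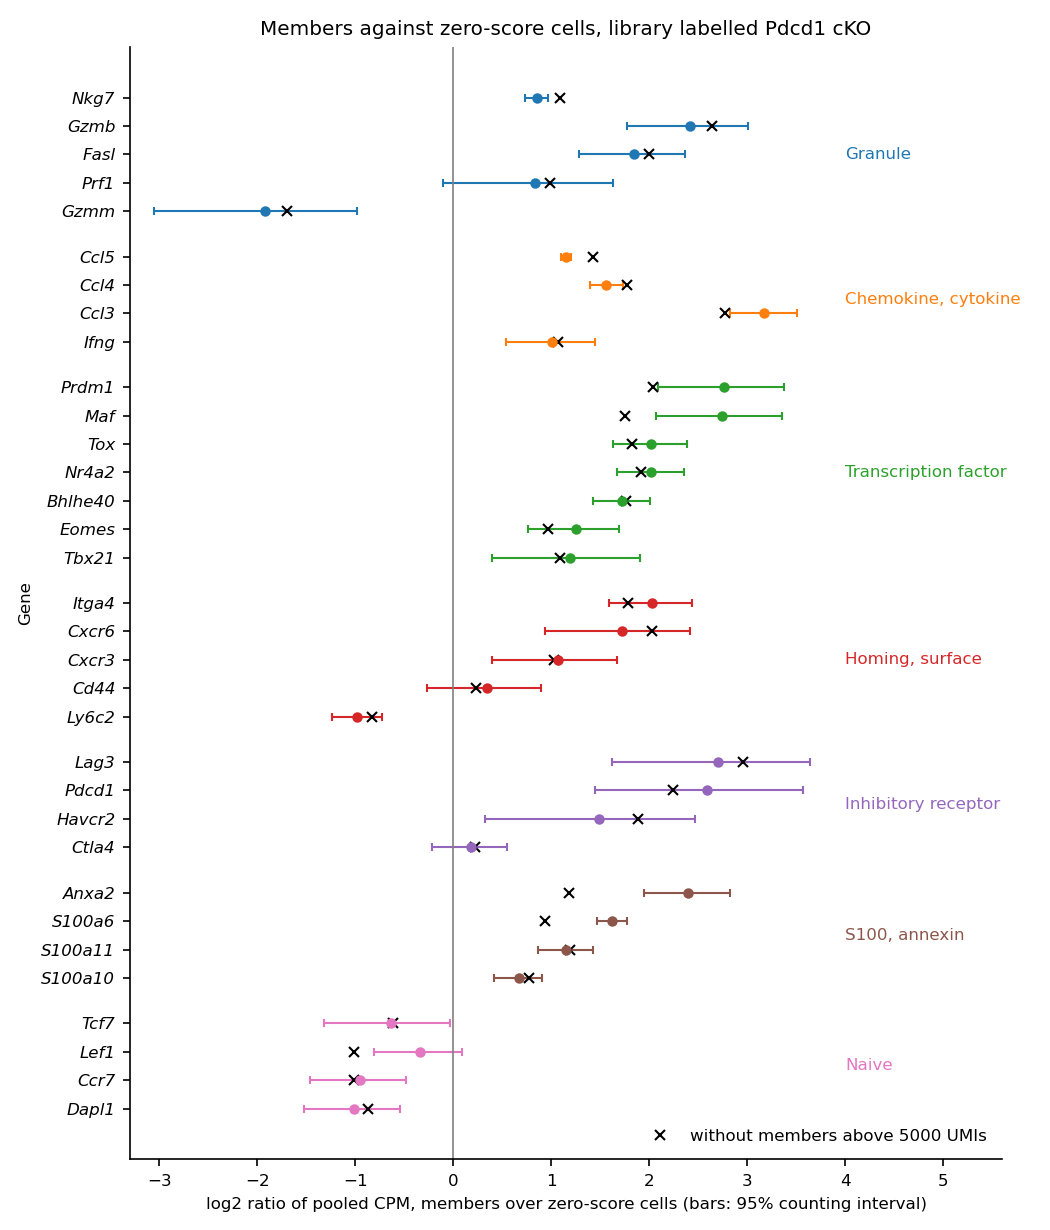
Log2 ratio of the pooled level (CPM) in 103 members over 4066 zero-score cells of the library labelled *Pdcd1* cKO, for genes grouped by role. Points are ratios with 95% counting intervals as bars, and crosses are the ratios without the 5 members above 5000 UMIs. The crosses of *Maf*, *Prdm1*, *Ccl3*, *Anxa2* and *S100a6* are among those left of their intervals. *Gzmm*, *Ly6c2* and the naive genes lie below 0.

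Most measured transcription factor genes of effector and memory T cells were higher in members. Of 18 measured, 12 were at least 2-fold higher (19.5% of all genes) and none lower, and the median log2 ratio was 1.23 beside 0.30 for all genes. *Bhlhe40*, a factor for cytokine production and mitochondrial fitness in T cells, was at 515 CPM in members and 156 CPM in zero-score cells (log2 1.72, 1.43 to 2.00). *Tox*, a regulator of chronically stimulated CD8 T cells, was at 306 and 75.7 CPM (log2 2.02, 1.63 to 2.39). *Nr4a2*, an orphan nuclear receptor gene switched on by T cell receptor signals, was at 380 and 93.8 CPM (log2 2.02, 1.67 to 2.35). These 3 genes had UMIs in 58, 32 and 41 members, and each was still at least 2-fold higher without the members above 5000 UMIs. Deep cells held part of the *Tox* RNA, however. In the members where *S100a4* had the most UMIs of the rule genes, *Tox* had 24 UMIs, and 5 without the members above 5000 UMIs.

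*Eomes* and *Tbx21*, which encode the T-box factors of memory and effector CD8 T cells, were at 200 and 78.9 CPM in members and at 84.1 and 34.5 CPM in zero-score cells (log2 1.25 and 1.19). Their ratios were 0.76 and 0.65 in thinned cells. *Batf*, a factor of effector differentiation, was at 158 and 58.8 CPM (log2 1.42, 0.87 to 1.93). *Prdm1*, the gene of the terminal differentiation factor Blimp-1, and *Maf*, a factor for interleukin 10, each had 26 UMIs in 11 members. Without the 5 members above 5000 UMIs the log2 ratio of *Prdm1* was 2.04 instead of 2.76 and that of *Maf* 1.75 instead of 2.74. The deep cells thus carried much of the RNA of both genes. *Id2*, a factor needed for effector survival, was at 311 and 220 CPM (log2 0.50, 0.13 to 0.85), and *Zeb2*, a factor of terminal effector cells, had 7 UMIs in 5 members. *Ahr* and *Zfp683* had no UMI in members.

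Most naive T cell genes had a lower pooled level in members (15 of 18 below 0 in log2 ratio). None was 2-fold lower after the pseudocount, and several intervals included 0. *Ccr7*, the lymph node homing receptor gene, was at 172 CPM in members and 331 CPM in zero-score cells (log2 -0.95, -1.46 to -0.48). *Dapl1*, a gene of naive and early memory T cells, was at 172 and 347 CPM (log2 -1.01, -1.52 to -0.55). Both genes were lower to about the same degree, and neither was absent. The ratio of *Ccr7* in cells thinned to 1000 UMIs was -0.64.

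*Tcf7*, which encodes the stemness factor TCF-1, was at 102 and 159 CPM (log2 -0.64, -1.32 to -0.03, and -0.36 among cells with at least 1500 UMIs), and *Lef1*, its relative, at 204 and 259 CPM (log2 -0.34, -0.81 to 0.09). The direction of *Lef1* turned among cells with at least 1500 UMIs (0.07). *Slamf6*, a surface marker of stem-like cells, had 13 UMIs in 11 members. Of the 18 naive genes, all measured, 15 were below 0 in log2 ratio, none was 2-fold lower after a pseudocount of 0.5 UMIs, and the median was -0.32. Of all genes, 35.4% were below 0 and 7.41% at least 2-fold lower, with a median of 0.30. The median of the naive list was -0.087 among cells with at least 1500 UMIs and -0.59 without the members above 5000 UMIs, where 2 genes were at least 2-fold higher (*Ccr9* and *Slamf6*) and 1 lower.

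Memory receptor and homing genes gave a mixed account of the label. *Itga4*, the integrin alpha 4 chain gene for entry into tissue, was at 246 CPM in members and 60.5 CPM in zero-score cells (log2 2.02, 1.58 to 2.44). *Cxcr6*, a receptor gene of tissue-homing cells, was at 83.5 and 25.4 CPM (log2 1.72, 0.93 to 2.42), and *Cxcr3*, a receptor for inflamed tissue, at 107 and 51.0 CPM (log2 1.07, 0.39 to 1.67). All 3 tissue-homing genes were higher in members.

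*Cd44*, the usual marker of antigen-experienced T cells, was at 125 and 99.0 CPM, a difference not detectable at this depth (log2 0.34, -0.27 to 0.89), and it was at 386 CPM in the granulocyte-gene cells. *Ly6c2*, a surface antigen gene of central memory and interferon-exposed CD8 T cells, was lower, at 622 and 1226 CPM (log2 -0.98, -1.24 to -0.73). *Il7r*, the survival cytokine receptor gene of naive and memory cells, was at 139 and 190 CPM (log2 -0.45, -1.03 to 0.07). *Klrg1* and *Cx3cr1*, markers of terminal effector cells, had 2 UMIs each in members, too few for a comparison. Relative to zero-score cells, *Ccr7* was thus lower and *Gzmb*, *Cxcr6* and *Itga4* higher, the direction of the effector-memory label, whereas *Cd44* was not detectably different. Of 25 measured genes of the list, 7 were at least 2-fold higher and none lower, against 19.5% and 7.41% of all genes, with a median log2 ratio of 0.69 against 0.30. *Cd7*, a costimulatory surface gene, was at 497 and 254 CPM (log2 0.97, 0.67 to 1.25), but at 0.28 among cells with at least 1500 UMIs.

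Several inhibitory receptor genes had few UMIs in members but a higher level than in zero-score cells. *Pdcd1* had 10 UMIs in 8 members, or 46.4 CPM (22.3 to 85.3), against 7.73 CPM in zero-score cells (log2 2.58, 1.45 to 3.57). Cells with 1 or 2 rule-gene UMIs were at 26.9 CPM (19.0 to 36.9). In the library labelled *Pdcd1*fl/fl, its 3 members had 0 *Pdcd1* UMIs (3 counts would be 295 CPM, interval up to 362), and its 1414 zero-score cells had 0 as well (3 counts would be 1.43 CPM, interval up to 1.76). In the library labelled as lacking the gene, *Pdcd1* RNA was thus higher in the members than in zero-score cells, with an interval that overlapped that of the cells in between.

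*Lag3*, an inhibitory receptor gene for MHC class II binding, had 11 UMIs in 11 members (51.0 CPM) against 7.87 CPM in zero-score cells (log2 2.70, 1.62 to 3.64). *Havcr2*, the gene of TIM-3, had 9 UMIs (41.8 against 14.9 CPM, log2 1.49, 0.32 to 2.46, and 0.89 among cells with at least 1500 UMIs). *Ctla4*, the most abundant of the list, was at 283 and 251 CPM (log2 0.18, -0.22 to 0.54). *Tigit* had 1 UMI in members. The pooled levels of *Pdcd1* and *Lag3* were therefore higher in members, though few members had a UMI of either, and that of *Ctla4* was not detectably different. Of 11 measured genes, 7 were at least 2-fold higher and none lower, beside 19.5% and 7.41% of all genes, with a median log2 ratio of 1.16 beside 0.30. Among the 7, *Cd244a* had 4 UMIs in members and *Cd200* 2, and *Btla* (log2 -0.95) and *Lair1* (-0.56) lay below 0 on 2 UMIs each. The granulocyte-gene cells had 0 UMIs of *Pdcd1* and *Lag3*.

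Among genes of calcium-binding and membrane-linked proteins, the ratios of some depended on 1 cell. *S100a6*, a neighbour of *S100a4* in the S100 family, was at 1754 CPM in members and 571 CPM in zero-score cells (log2 1.62, 1.46 to 1.77). *Anxa2*, a membrane-repair annexin gene, was at 241 and 45.9 CPM (log2 2.40, 1.94 to 2.82), and *Crip1*, a LIM-domain protein gene, at 3011 and 1707 CPM (log2 0.82, 0.70 to 0.93). A lone member, however, carried all 96 *Msln* UMIs of the members, 156 of 157 *Igfbp6* UMIs, 58 *Sparc* UMIs and 44 *C3* UMIs, genes known from mesothelial and stromal cells. Without that member the ratios were 0.73 for *S100a6*, 1.15 for *Anxa2* and 0.19 for *Crip1*, and *Vim*, an intermediate filament gene, turned from 0.56 to -0.56.

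*S100a11* kept its ratio more closely, at 515 and 232 CPM (log2 1.15, 0.86 to 1.43, and 0.95 without that member), though it was 0.57 among cells with at least 1500 UMIs. *S100a10*, the partner of annexin A2, was at 664 and 418 CPM (log2 0.67, 0.41 to 0.91, and 0.62 without that member). *Anxa1*, an annexin gene of myeloid and stromal cells, had 42 UMIs in only 4 members. Of 19 measured genes of the list, 5 were at least 2-fold higher (*S100a6*, *S100a11*, *Anxa1*, *Anxa2* and *Lgals3*) and none lower, beside 19.5% and 7.41% of all genes, with a median log2 ratio of 0.66 beside 0.30. Without the cell carrying *Msln* the count was 3 (*Anxa1*, *Anxa2* and *Lgals3*) and the median 0.32. *S100a6*, *S100a10* and *S100a11* were thus higher in members with and without that cell, but none of them by 2-fold when it alone was left out. Without all members above 5000 UMIs, that cell among them, the count was 5 (*S100a11*, *Anxa1*, *Anxa2*, *Lgals3* and *Myo1f*) and the median 0.35. The 5 members above 5000 UMIs held 23.9% of the members' UMIs.

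*Ccl5*, *Nkg7* and *Ccl4* rose with the number of rule-gene UMIs up to 3, starting below the threshold. *Ccl5* was at 7369 CPM in cells with 0 rule-gene UMIs, 9249 with 1 and 13108 with 2, against 15744 CPM in members with 3 and 20259 CPM in those with 4 to 5. *Nkg7* went from 1713 through 1974 and 2815 to 3123 and 3576 CPM over the same cells. *Ccl4* was at 494, 738, 841, 1342 and 1218 CPM. For these genes, the cells just outside the threshold were therefore partway between zero-score cells and members with 3 UMIs. Median depth over these cells was 1617, 1648, 1539.5, 1519 and 1460 UMIs. Of the 5 members above 5000 UMIs, 2 had 3 rule-gene UMIs and the others 7, 8 and 21.

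*Tox* was at 75.7, 139, 234, 231 and 295 CPM over the same order, and *Pdcd1* at 7.73, 20.5, 51.7, 46.3 and 39.3 CPM. *Tox* was thus as high in cells with 2 rule-gene UMIs as in members with 3. In cells with 2, 3 and 4 to 5 rule-gene UMIs, the *Pdcd1* levels came from 15, 4 and 2 UMIs. Their intervals overlapped (28.9 to 85.2, 12.6 to 118 and 4.76 to 142 CPM), so no order of *Pdcd1* among these cells can be read. *Ly6c2* went down from 1226 through 1054 and 965 to 694 and 511 CPM. *Gzmm* stayed at 158, 134 and 138 CPM below the threshold and was at 34.7 and 19.6 CPM just above it, from 3 UMIs and 1 UMI. The bins above hold few cells, 20 with 6 to 9 UMIs and 9 with 10 or more (median depths 1352.5 and 1445 UMIs), and the genes differed there. *Ccl5* was at 13384 and 17160 CPM, *Ccl4* at 1731 and 1761, *Nkg7* at 2516 and 3251, *Tox* at 464 and 226, *Gzmm* at 53.5 and 90.3 and *Ly6c2* at 464 and 993 CPM.

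**Figure D2:**
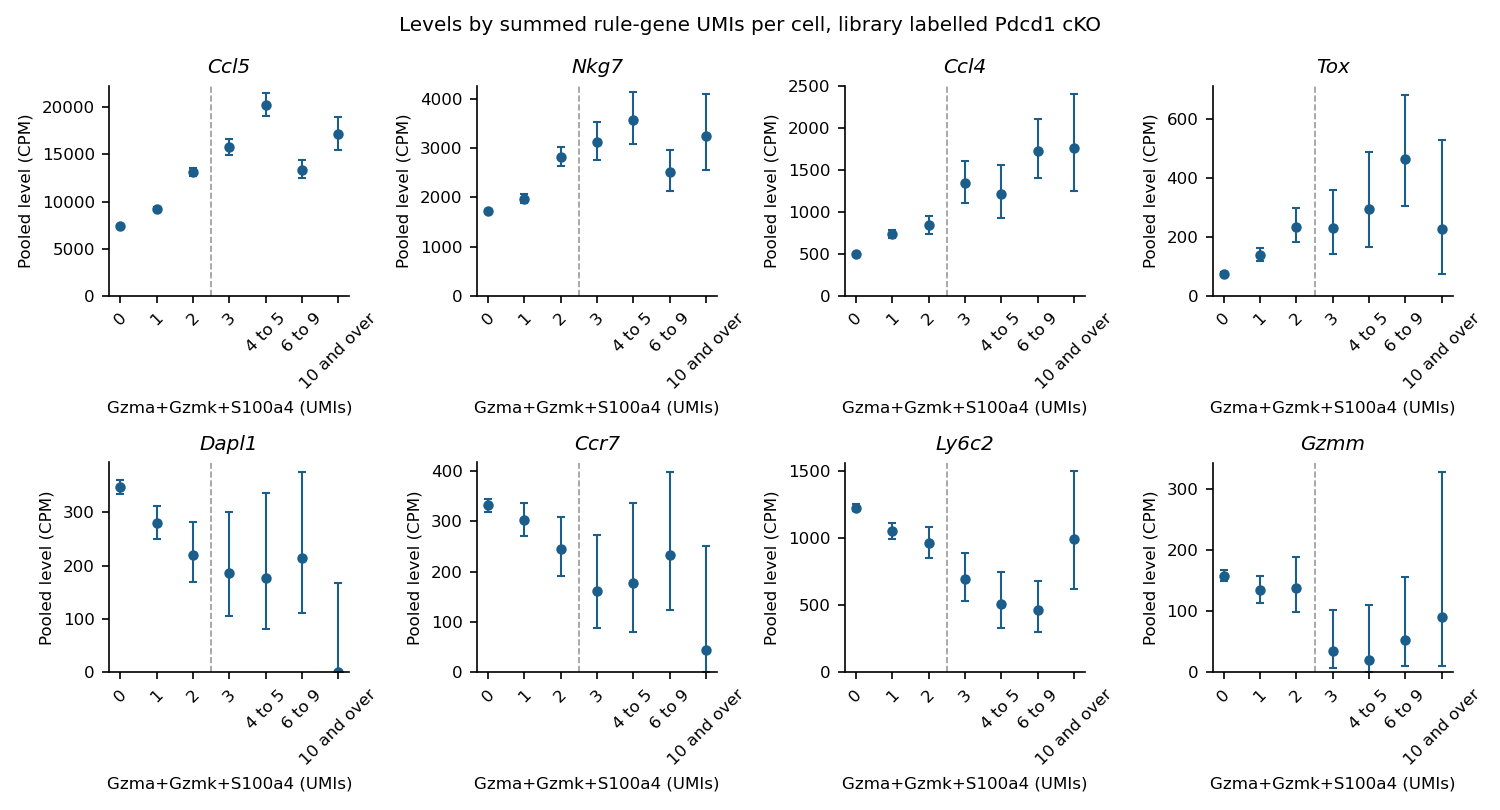
Pooled level (CPM) of 8 genes in filtered cells of the library labelled *Pdcd1* cKO, by the summed UMIs of *Gzma*, *Gzmk* and *S100a4* per cell. Points are pooled levels with 95% Poisson intervals, and members lie right of the dashed line. *Ccl5* rises from 7369 CPM at 0 UMIs to 15744 CPM at 3, and *Ly6c2* goes from 1226 to 694 CPM.

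The members differed among themselves by the rule gene that led in each cell. Among the 103, *Gzma* had the most UMIs in 35, *Gzmk* in 26 and *S100a4* in 37, with ties in 5, at median depths of 1358, 1473.5, 1519 and 1287 UMIs. *Gzmb* was at 255 CPM (151 to 402) in the members led by *Gzma*, 93.0 (25.3 to 238) in those led by *Gzmk* and 53.0 (17.2 to 124) in those led by *S100a4*. *Ccl4* was at 2235 (1900 to 2612), 907 (645 to 1239) and 1155 CPM (948 to 1393). *Gzmb* and *Ccl4* were highest where *Gzma* led, although the *Gzmb* intervals of the *Gzma*-led and *Gzmk*-led members overlapped. *Klrk1*, which encodes the activating receptor NKG2D, had 12 UMIs in the *Gzma*-led members, 0 in the *Gzmk*-led and 7 in the *S100a4*-led.

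The members led by *Gzmk* had the most *Ccl5*, at 21503 CPM (20139 to 22934), against 16633 (15696 to 17612) where *Gzma* led and 13509 (12777 to 14271) where *S100a4* led. Without the members above 5000 UMIs the *Gzma*-led cells were at 20538 CPM, with an interval that overlapped that of the *Gzmk*-led cells, and the *S100a4*-led cells at 17680 CPM (16625 to 18784), below both. *Ccr7* was at 46.5 CPM where *Gzmk* led, from 2 UMIs, and at 198 and 201 CPM where *Gzma* and *S100a4* led. The intervals of *Ccr7* overlapped among all 3 groups.

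The members led by *S100a4* differed from those led by *Gzma* in further genes. *Cxcr3* was at 180 CPM (105 to 288) in them, at 28.3 (3.43 to 102) where *Gzma* led and at 69.7 (14.4 to 204) where *Gzmk* led. *Lgals1*, which encodes galectin-1, was at 954 CPM (767 to 1172) against 424 (286 to 606) and 442 (266 to 690). *Cd8b1* was at 1060 CPM (862 to 1289) against 566 (404 to 770) and 651 (433 to 941). These members thus had more *Cxcr3*, *Lgals1* and CD8 beta chain RNA than the *Gzma*-led members, while only the *Lgals1* interval was clear of that of the *Gzmk*-led. Without the members above 5000 UMIs the *Cd8b1* interval of the *S100a4*-led was clear of it too (1351 CPM, 1071 to 1681). *S100a6* was at 2967 CPM against 537 and 1255, but at 1402 CPM without the members above 5000 UMIs, which took out the cell with *Msln*, when it overlapped with the *Gzmk*-led cells. *Tox* in the *S100a4*-led members was at 254 CPM, and at 84.4 CPM without the members above 5000 UMIs, against 405 CPM in the remaining *Gzma*-led cells.

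**Figure D3:**
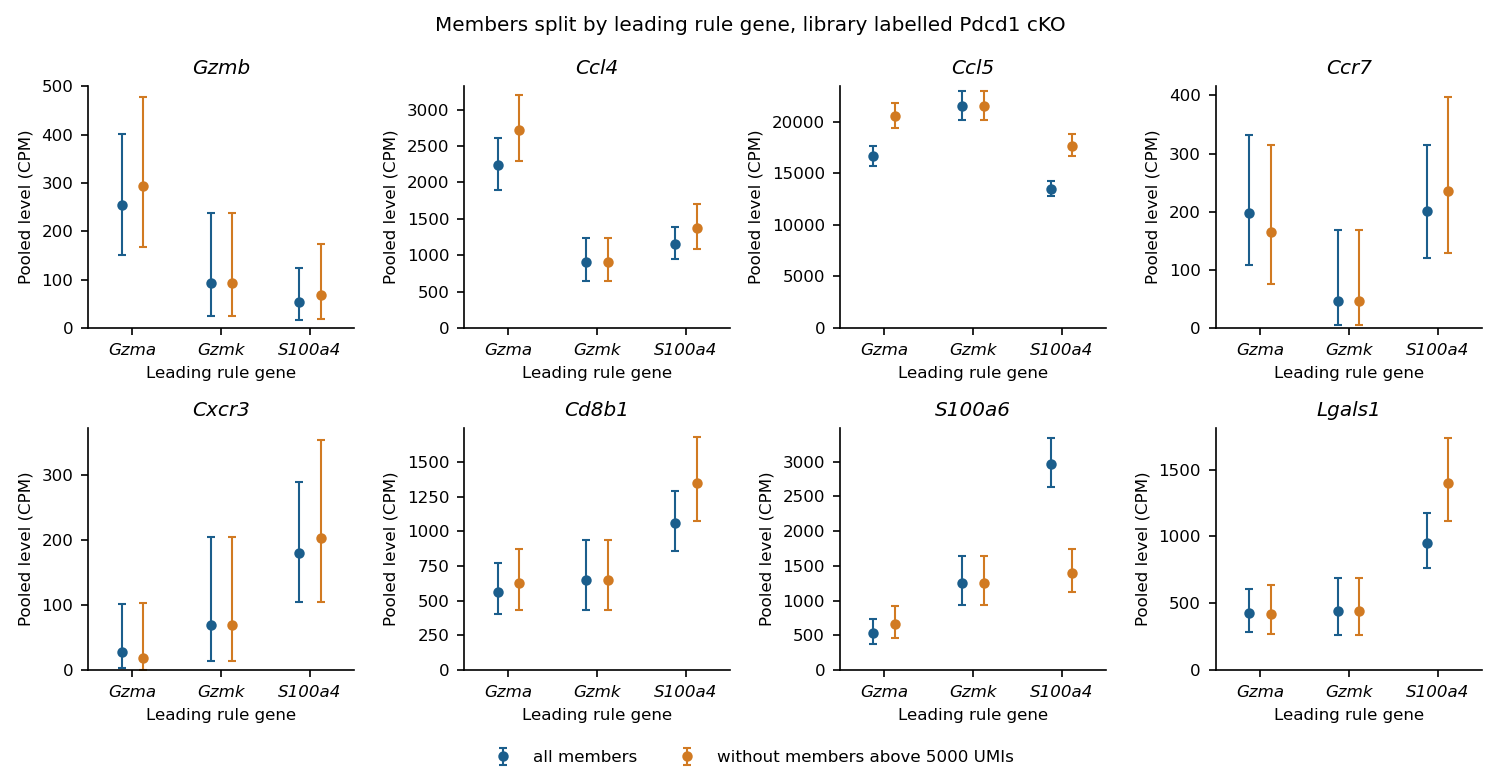
Pooled level (CPM) of 8 genes in members of the library labelled *Pdcd1* cKO, split by the rule gene with the most UMIs in the cell (35 *Gzma*, 26 *Gzmk* and 37 *S100a4*). Points are pooled levels with 95% Poisson intervals, in blue for all members and in orange without the members above 5000 UMIs. *Gzmb* and *Ccl4* are highest where *Gzma* leads, and *Cxcr3*, *Cd8b1* and *Lgals1* where *S100a4* leads. Against the members led by *Gzmk*, the *Cxcr3* intervals overlap in both colors and the *Cd8b1* intervals in blue only.

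Among all genes with UMIs in at least 10 members, the 12 highest by the interval bound nearest to no change were *Rgs16*, *Ccl3*, *Trgc2*, *Chn2*, *Prdm1*, *Maf*, *Anxa2*, *Gzmb*, *Ier3*, *Serpina3g*, *Nr4a2* and *Ciapin1*. *Rgs16*, which encodes a brake on chemokine receptor signaling in activated T cells, was at 339 CPM in members and 36.2 CPM in zero-score cells (log2 3.23, 2.83 to 3.61), with UMIs in 29 members and none in the granulocyte-gene cells. *Serpina3g*, a protease inhibitor gene of activated and memory CD8 T cells, was at 97.4 and 18.2 CPM (log2 2.42, 1.68 to 3.09). *Trgc2*, a gamma-chain constant segment of the T cell receptor, was at 92.8 and 8.98 CPM (log2 3.37, 2.57 to 4.11, and 2.10 among cells with at least 1500 UMIs), while *Trdc*, the delta-chain constant gene that defines gamma-delta T cells, had 0 UMIs in members (interval up to 17.1 CPM) and was at 10.2 CPM in zero-score cells, so its absence cannot be read. *Ier3*, an immediate early gene, had 47 UMIs and a ratio of 2.17, or 1.46 without the members above 5000 UMIs.

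Regulators of G protein signaling differed gene by gene. *Rgs1*, which dampens chemokine receptor signals in tissue and exhausted T cells, was at 891 CPM in members and 354 CPM in zero-score cells (log2 1.33, 1.11 to 1.54). *Rgs2* was at 385 and 371 CPM, and *Rgs10*, another gene of the family, at 83.5 and 234 CPM (log2 -1.48, -2.24 to -0.82). *Rgs1* and *Rgs16* were therefore higher and *Rgs10* lower in the same cells. Of the 7 measured, 2 were at least 2-fold higher and 1 lower, with a median log2 ratio of 0.06, beside 19.5% higher, 7.41% lower and a median of 0.30 over all genes. *Cd82*, a tetraspanin gene, was at 487 and 165 CPM (log2 1.56, 1.26 to 1.85).

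The 12 lowest genes were *Iglc1*, *1700016L21Rik*, *Iglc3*, *Ighm*, *Ighg2b*, *Igkc*, *Clybl*, *Gzmm*, *Stx1a*, *Arl3*, *Rgs10* and *Jchain*. Immunoglobulin genes led this list, and a few zero-score cells held most of their UMIs. *Igkc*, the kappa light chain gene of B cells, was at 603 CPM in members and 1735 CPM in zero-score cells (log2 -1.52, -1.78 to -1.27), and 10 zero-score cells held 72.1% of its UMIs there. A UMI of *Igkc* was in fact seen in more members (66.0%, 56.0 to 75.1) than zero-score cells (53.8%), and in 58.3% of the granulocyte-gene cells. In cells thinned to 1000 UMIs the ratio of *Igkc* was -0.41, and that of *Iglc3* turned from -2.42 to 0.07. The low immunoglobulin level of members is therefore a statement about a few cells among the others. *Stx1a*, a membrane fusion gene, had 0 UMIs in members against 230 in 211 zero-score cells, and *1700016L21Rik* had 0 against 650, of which 10 cells held 93.1%.

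Ribosomal protein genes were lower in members as a family. Their summed level was 210019 CPM in members and 282679 CPM in zero-score cells (log2 -0.43, -0.44 to -0.42), and 76 of 78 measured genes were below 0 (35.4% of all genes), none past 2-fold after the pseudocount (7.41% of all genes were lower by that much), with a median of -0.39 beside 0.30. The median was -0.66 with scaling by the median of ratios. The ribosomal share of UMIs went from 28.3% with 0 rule-gene UMIs through 25.9% and 23.3% to 20.3% with 3, and was 23.3% with 4 to 5, 18.6% with 6 to 9 and 24.3% with 10 or more, with no steady order among the members. *Rps27*, the most abundant, was at 8918 and 11910 CPM. The family was at 196597 CPM in the granulocyte-gene cells, so a lower ribosomal share was not particular to the members.

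T cell receptor and signaling genes were near the median of all genes. Of 19 measured, none passed 2-fold in either direction, beside 19.5% and 7.41% of all genes, and the median log2 ratio was 0.31 beside 0.30. *Cd3e*, a signaling chain of the receptor complex, had a ratio of 0.59 (0.30 to 0.86), but -0.05 among cells with at least 1500 UMIs, *Cd8a* one of 0.42 (0.06 to 0.76) and *Cd8b1* one of -0.10 (-0.32 to 0.12). With the same 103 members and 4066 zero-score cells thinned to 1000 UMIs each, *Cd3e* was seen in 46.6% of members (36.7 to 56.7) and 27.9% of zero-score cells, and *Cd8a* in 33.0% (24.1 to 43.0) and 20.9%. Immediate early genes, a measure of recent activation or handling, had 12 measured members, none past 2-fold, with a median of 0.11, and *Junb*, their most abundant, was in 88 members. That list did not hold *Ier3*, at a ratio of 2.17, or *Nr4a2*, at 2.02.

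The other T cell lists were smaller in effect or in UMIs, and their counts stand beside 19.5% of all genes higher and 7.41% lower. Killer lectin-like receptors, natural killer receptors shared by CD8 T cells, had a median of -0.43, with 1 of 11 measured genes higher (*Klra9*) and 1 lower (*Klra3*), and *Klrd1*, which encodes CD94, was at 190 and 238 CPM (log2 -0.32, -0.81 to 0.12). Costimulatory and cytokine receptors had 2 of 19 higher (*Il10ra* and *Il12rb1*) and 1 lower (*Il15ra*), with a median of 0.30, equal to that of all genes. Interferon-stimulated genes had 3 of 11 higher (*Ifi27l2a*, *Zbp1* and *Rtp4*) and 1 lower (*Ly6a*), with a median of 0.54, and *Ifi27l2a* was at 158 CPM in 25 members (log2 1.26).

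Cell cycle genes had 6 of 10 measured genes at least 2-fold higher and a median of 1.15, but rested on few UMIs (19.5% and 0.30 over all genes). *Mki67*, the proliferation marker, had 2 UMIs, and *Top2a*, the topoisomerase of dividing cells, 9 UMIs in 4 members. *Hmgb2*, a chromatin protein gene, was at 561 and 271 CPM (log2 1.05, 0.78 to 1.32), and at 920 CPM in the granulocyte-gene cells. A cycling state cannot be read from these counts. Bcl2 family genes, which control survival, had 2 of 8 higher (*Bcl2l1* and *Bcl2a1b*) and a median of 0.16, with *Bcl2a1b* at a ratio of 1.31 (0.76 to 1.82). Glycolysis genes had 1 of 13 higher (*Hk1*) and a median of 0.10. The medians of these 2 lists, of the immediate early genes and of the regulators of G protein signaling turn negative with scaling by the median of ratios.

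Most markers of other cell types had few or no UMIs in members. The natural killer cell markers *Ncr1*, *Klrb1c* and *Itga2* had 0 UMIs, and the 6 genes of that list summed to 18.6 CPM in members and 26.7 CPM in zero-score cells, with *Tyrobp* the most abundant. Of the 6 genes of the gamma-delta list, 3 had counts under their listed symbols (*Trdc*, *Sox13* and *Zbtb16*). These summed to 4.64 and 12.0 CPM, from *Zbtb16* alone in members, with *Trdc* and *Sox13* at 0. The gamma-chain constant genes of the list were thus not part of the sum. *Trgc2*, a gamma-chain constant segment named above, was higher in members, at 92.8 and 8.98 CPM. The CD4 and regulatory T cell list summed to 13.9 and 7.60 CPM from 3 UMIs, led by *Zbtb7b*, with *Foxp3* and *Cd40lg* at 0.

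The B cell list summed to 742 and 2368 CPM, led by *Igkc*, with 5 of 10 genes at 0 in members, among them *Cd79b* and *Ms4a1*. The plasma cell list summed to 60.3 and 162 CPM, led by *Jchain*, with *Mzb1* and *Sdc1* at 0. The monocyte list summed to 153 and 127 CPM, led by the widely expressed *Cst3*, with *Lyz2*, *Csf1r*, *Itgam* and *Adgre1* at 0. Of its 4 measured genes, 2 were at least 2-fold higher (19.5% of all genes), with a median log2 ratio of 0.76 beside 0.30. These were *Fcgr3* and *Cd68*, the latter at 23.2 and 6.77 CPM from 5 UMIs in 4 members. The dendritic cell list summed to 51.0 and 84.3 CPM, led by *Cd74*, with 6 of 8 genes at 0. Surface markers of these cells had few UMIs in members, with 1 each of *Cd79a* and *Cd22*, 2 of *Fcgr3*, 3 of *Itgax* and 8 of *Cd74*. The part of such RNA in the other values was not tested.

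The granulocyte progenitor list, of which the rule limited 3 genes, summed to 41.8 and 16.9 CPM from 9 UMIs in 7 members, against 9950 CPM in the granulocyte-gene cells. *Elane* and *Ctsg* led it with 3 UMIs each. The neutrophil list summed to 0 and 2.21 CPM, with all 5 genes at 0 in members, *S100a8* and *S100a9* included. The erythroid list summed to 46.4 and 39.4 CPM, led by *Car2*, with *Alas2* at 0, and the platelet list to 4.64 and 7.04 CPM from 1 *Pf4* UMI.

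The 3 members of the library labelled *Pdcd1*fl/fl differed in the genes named here. The first had 7842 UMIs, with 4 of *S100a4* and 2 of *Gzmk*, 3 of *Ccl5*, 18 of *Nkg7*, 8 of *Cd3d* and 17 of *Trbc2*, and none of *Cd8a* or *Cd8b1*. The second had 1182 UMIs, with 4 of *S100a4*, 23 of *Ccl5*, 1 of *Nkg7* and 1 of *Cd8b1*, and 74 of *Dysf*, a membrane-repair gene. The third had 1155 UMIs, with 10 of *Gzma*, 25 of *Ccl5*, 4 of *Nkg7* and 2 of *Cd8b1*. The shallower cells had *Ccl5* at 19459 and 21645 CPM, within the range of the other library's members, and the deep cell at 383 CPM, below that range. None had a *Gzmb*, *Pdcd1* or *Ccr7* UMI. All 3 had UMIs of *Tafa2* (66, 18 and 7), as did 98.5% of the zero-score cells of that library, against 1 UMI in the 103 members of the other library. In the zero-score cells of that library *Ccl5* was at 3840 CPM and *Nkg7* at 1263 CPM. With 1 UMI equal to 98.2 CPM, gene ratios over these 3 cells were not read.

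The other libraries were made from CD8-selected cells of the thymus at baseline and of B16-OVA melanoma at 12 days after injection. The selected cells of the tumors were pooled from 3 mice per genotype. The same rule applied to these libraries found 36.4% of 1067 filtered thymus cells labelled *Pdcd1*fl/fl and 20.8% of 2635 labelled *Pdcd1* cKO. In tumor it found 51.5% of 456 and 89.8% of 561 cells. Median depths of these filtered cells were 4361, 5417, 13809.5 and 9510 UMIs, well above the spleen. Thinned to 1000 UMIs, the shares were 4.87% (3.66 to 6.34) and 2.13% (1.61 to 2.75) in thymus and 14.3% (11.2 to 17.8) and 37.1% (33.1 to 41.2) in tumor, beside 0.0677% and 1.42% in spleen. At equal depth, the tumor libraries had the highest shares of cells meeting the rule and the library labelled *Pdcd1*fl/fl of the spleen the lowest. Whether the cells meeting it in thymus and tumor were CD8 T cells was not tested.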

How the data were processed

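The authors deposited raw UMI counts per gene and barcode from PIPseq single-cell libraries, made with the PIPseq pipeline 3.2 on GRCm39 and analysed by them in Seurat 4.3.0. Members, gene lists and comparisons were chosen with earlier results of these data known. The published thresholds (500 genes, 1000 UMIs, 20% mitochondrial UMIs) were applied. Counts were pooled by library and cell group and scaled to CPM of all UMIs, with exact Poisson, Clopper-Pearson and conditional binomial 95% intervals. List medians used genes with at least 20 UMIs and a pseudocount of 0.5.

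Depth was 5935926 and 8964626 UMIs in the spleen libraries. The planned gene results over both libraries, and the named genes planned from them, were not read, because 1 library has 3 members. The library labelled *Pdcd1* cKO alone was used instead, a choice made after seeing the data. Named genes were the 12 highest with UMIs in at least 10 members and the 12 lowest, by the interval bound nearest to no change, up to 4 genes of each list by ratio or level, the defining markers of other cells, and genes known from the study. *Ctsw*, *Xcl1*, *Cd44*, *Lef1*, *Il7r* and other genes outside this rule were named after their values were seen. Alternatives were a score of at least 5, thinning to 1000 UMIs (seed 1), cells with a *Cd8a* or *Cd8b1* UMI, at least 1500 UMIs, median-of-ratios scaling and no gene minimum. Coordinates are from GENCODE on GRCm39. Tools were Python 3.11.15, numpy 2.4.6, pandas 2.3.3, scipy 1.17.1 and matplotlib 3.10.9, checked on simulated data.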

Additional observations from a re-analysis of the deposited data

How the results depend on the processing

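No paired analysis was possible because each genotype has 1 spleen library from 1 mouse. The median log2 ratios of the granule, chemokine, transcription factor, memory receptor, S100, inhibitory receptor, naive and ribosomal lists kept their sign under every setting run, while those of the costimulatory, G protein, immediate early, glycolysis and Bcl2 lists, of 0.30 or less, and of some lists of other cell types did not. The cause of each change was not tested beyond the smaller number of cells or genes that a setting leaves. Alternatives that drop the member with *Msln* UMIs, drop members above 5000 UMIs, require 350 UMIs per gene or UMIs in 10 members, leave kinases and pseudogenes out of the ribosomal list, and use the library labelled *Pdcd1* cKO alone were chosen after seeing the data.

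The share of members in the library labelled *Pdcd1* cKO, 2.09%, was 0.771% with a score of at least 5, 1.42% after thinning and 1.59% at 1500 UMIs. In that library, the 1248 genes at least 2-fold higher became 2000 with a score of at least 5, 699 with median-of-ratios scaling, 10903 with no gene minimum, 106 at 350 UMIs per gene and 289 with UMIs in 10 members. The 545 lower genes became 883 with a score of at least 5, 872 after thinning, 821 without members above 5000 UMIs, 820 with no minimum and 46 at 350 UMIs per gene. The genes compared were 8666, and 8617 with a score of at least 5, 7084 after thinning, 8622 without members above 5000 UMIs, 21591 with no minimum and 2755 at 350 UMIs per gene. These counts rest on few UMIs per gene. With no minimum, the pseudocount also places genes with 0 UMIs in members among the higher ones, such as *Ncr1* (log2 1.61). The 10903 is therefore no count of genes with more RNA in members. Beyond the turns given above, the ratios of *Cd8b1* (0.04), *Cst3* (-0.31) and *Ly6a* (0.08) changed sign after thinning, those of *Lgals1* (-0.01), *Serpinb9* (-0.03) and *Rgs2* (-0.08) at 1500 UMIs and those of *Slamf6* (-0.63), *Zeb2* (-0.40) and *Xcl1* (-0.43) with a score of at least 5, from 1 to 76 UMIs in members, and *Ctla4*, *Ctsw*, *Xcl1* and *Rgs2* do so with median-of-ratios scaling.

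The median log2 ratio of the naive list was -0.087 at 1500 UMIs and -0.59 without members above 5000 UMIs. That of the ribosomal list was -0.38 with all symbols of the planned name pattern, -0.42 with a score of at least 5, -0.33 after thinning, -0.42 at 1500 UMIs, -0.36 without the member with *Msln*, -0.29 without members above 5000 UMIs and -0.66 with median-of-ratios scaling.

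With 3 members in the library labelled *Pdcd1*fl/fl, the planned counts over both libraries are given only here. The 95 genes higher in both became 214 with a score of at least 5, 269 after thinning, 152 in cells with a *Cd8a* or *Cd8b1* UMI, 29 at 1500 UMIs, 29 with median-of-ratios scaling and 6313 with no minimum. The 7 lower in both became 28 with a score of at least 5, 0 after thinning, 0 in cells with a CD8 UMI and 33 with median-of-ratios scaling. Between the members of the libraries, the 149 genes higher in those labelled *Pdcd1* cKO became 57 with a score of at least 5, 32 after thinning, 80 in cells with a CD8 UMI and 599 with no minimum, and the 116 lower became 34, 44 after thinning, 77 at 1500 UMIs and 7242 with no minimum. The number of genes compared moved with these counts, and those with no minimum carry the pseudocount limit given above. Over both libraries it was 4414, and 4411 with a score of at least 5, 3236 after thinning, 3019 in cells with a CD8 UMI, 2169 at 1500 UMIs and 16982 with no minimum. Between the members it was 682, and 274, 201, 569, 435 and 11910 in the same order.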
